A study of Homo sapiens with 4 samples.

Results

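MAD1L1 and 9 further genes of the spindle checkpoint (MAD2L1, MAD2L2, TTK, BUB1, BUB1B, BUB3, CDC20, ZW10 and KNTC1) were followed in 2 clones of SW620, an aneuploid human cell line from a metastasis of a colon adenocarcinoma. The 10 genes were read by 21 of the 54613 probe sets other than controls, every one that the platform annotation gives to a member alone, and they are 10 of 19775 named genes. 0 probe sets named a member together with another gene. MAD1L1 was selected on its measured signal, one of the largest differences between the clones, and the others were added as its partners. The differences of all members between the clones are therefore a description, and so are the calls and p-value counts given for them. Both groups were SW620 cells sorted with magnetic beads for the surface protein CD133, cloned from single cells, grown in Leibovitz's L-15 medium with serum, penicillin and streptomycin, and sorted for CD133 again before RNA extraction, and the labels name no further treatment. One group was the CD133+ clone CPC1 on 2 arrays, and the other was the CD133- clone CNC1 on 2 arrays. Each group is 1 clone, so an effect of the clone cannot be told apart from one of CD133. The labels name no separate cultures behind the 2 arrays of a clone, so every p-value below reflects array-to-array spread alone, and that spread may be technical.

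The spindle checkpoint delays anaphase until every chromosome is attached to spindle fibres. At an unattached kinetochore the kinase TTK (also called MPS1) starts the signal, BUB1 and BUB3 assemble there, and the RZZ complex, to which ZW10 and KNTC1 belong, brings in further parts. MAD1L1 holds MAD2L1 at the kinetochore and turns it into the form that binds CDC20, and MAD2L1, BUB1B and BUB3 together keep CDC20 from switching on the anaphase-promoting complex (APC/C), the ubiquitin ligase that marks securin and cyclin B for destruction. Many of these genes are transcribed mainly in cells preparing to divide, through promoter elements named CHR and CCAAT, which are bound by the MuvB-containing complexes and by NF-Y.

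The start regions of 4 members are shown because MAD1L1 was the member that stood apart and CDC20, BUB1 and BUB1B carry the letters of these elements. They come from RefSeq (GRCh38.p14), where 7 of the 10 members had an entry, as 8 windows of 300 bases (250 before to 50 after the start). Letters searched were TTTGAA and TTCGAA for CHR and CCAAT for the NF-Y element, on both strands, and no matches overlapped. Each line gives the 250 bases before the start, 5′ to 3′ on the gene's strand, with matches in capitals. The MAD1L1 bases are chr7:2232946-2233195 on the minus strand, those of BUB1 chr2:110678064-110678313 on the minus strand, those of BUB1B chr15:40160819-40161068 on the plus strand and those of CDC20 chr1:43358731-43358980 on the plus strand.
MAD1L1: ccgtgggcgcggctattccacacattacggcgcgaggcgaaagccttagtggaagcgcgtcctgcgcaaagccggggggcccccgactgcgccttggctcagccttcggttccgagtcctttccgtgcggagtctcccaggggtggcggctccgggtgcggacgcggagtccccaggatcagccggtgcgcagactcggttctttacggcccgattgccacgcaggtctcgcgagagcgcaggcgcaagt
BUB1: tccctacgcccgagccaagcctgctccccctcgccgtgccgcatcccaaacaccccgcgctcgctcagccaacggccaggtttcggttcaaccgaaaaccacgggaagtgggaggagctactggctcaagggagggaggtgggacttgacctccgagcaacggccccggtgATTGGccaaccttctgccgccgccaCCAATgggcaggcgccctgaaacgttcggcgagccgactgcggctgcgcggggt
BUB1B: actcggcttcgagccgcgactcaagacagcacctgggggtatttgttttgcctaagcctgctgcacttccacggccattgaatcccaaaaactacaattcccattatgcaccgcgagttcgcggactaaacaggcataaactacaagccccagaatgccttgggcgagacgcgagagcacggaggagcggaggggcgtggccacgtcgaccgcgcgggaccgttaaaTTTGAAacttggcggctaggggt
CDC20: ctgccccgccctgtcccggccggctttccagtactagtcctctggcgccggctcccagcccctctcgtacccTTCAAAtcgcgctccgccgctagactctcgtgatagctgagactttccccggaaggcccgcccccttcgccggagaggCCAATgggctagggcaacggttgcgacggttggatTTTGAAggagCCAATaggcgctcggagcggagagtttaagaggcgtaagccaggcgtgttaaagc
The MAD1L1 window held neither motif. CDC20 held CHR letters at 65 and, on the opposite strand, at 178 bases before the start, and CCAAT at 100 and 55 bases before it. BUB1 held CCAAT at 54 and, on the opposite strand, at 79 bases before the start, with TTCGAA beginning 2 bases into the transcript, outside the printed stretch. BUB1B held CHR letters at 23 bases before the start and no CCAAT. Both motifs were also present in the windows of MAD2L1 and ZW10, and 1 of the 2 MAD2L2 windows held CCAAT alone. In all, 5 of 8 windows had CHR letters and 5 had CCAAT, against 16.4% and 34.6% of the 35116 windows in the table, and 2 had neither, against 55.4%. A match is a description of letters, and its absence says only that the letters are not in this window.

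The measurements were log2 probe-set signals, quantile normalized here over the 4 arrays. Values given as deposited or without normalization lack that step, and centred arrays have their medians set equal in its place. Arrays carry no read depth, so the number of arrays limits the precision (median standard error of a difference 0.18 over all probe sets). Across the named genes, replicate arrays correlated at r = 0.994 in each clone, and the r between a CD133+ and a CD133- array was 0.984 to 0.991, across genes that are not independent replicates. PROM1, which encodes CD133, had log2 signals of 8.46 and 8.73 in the positive clone against 3.31 and 3.35 in the negative one, which checks the labels of the sort. All 9 colon epithelium markers were measured, with mean levels from 6.004 to 14.14, and their summed log2 level was 15.30 to 15.31 in CD133+ and 15.38 to 15.42 in CD133- cells. Markers of fibroblasts (6 measured), leukocytes (5) and endothelium (4) had mean levels of at most 7.01, 6.63 and 5.72. Of these 15 genes 0 passed a limma adjusted p under 0.05 between the clones, where 0.329% of named genes did. Of the 9 colon markers 0 passed it as well. At an unadjusted limma p under 0.05, 1 colon marker was higher and 3 were lower, against 8.3% and 7.63% of named genes. The gap between the 3′ and 5′ probe sets of ACTB, which reflects RNA integrity, was 1.92 (log2) on CD133+ replicate 2 and 0.71 to 1.18 on the other arrays. For GAPDH the gap was 0.097 and 0.090 on CD133+ replicates 1 and 2, and 0.017 and 0.026 on the CD133- arrays. GAPDH thus did not set CD133+ replicate 2 apart from CD133+ replicate 1.

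MAD1L1 was the member with the widest gap between the clones. Its 1 probe set (204857_at; the gene is on chromosome 7) had log2 signals of 8.54 and 8.89 in CD133+ cells, against 6.93 and 7.09 in CD133- cells. Both CD133+ arrays lay above both CD133- arrays, and the nearest arrays of the 2 clones were farther apart than the replicates of either clone. The mean was 8.72 ± 0.25 (SD, n = 2) in CD133+ cells and 7.01 ± 0.11 (SD, n = 2) in CD133- cells. They differed by 1.71 (SE 0.18), or 3.27-fold higher in CD133+ cells. It ranked 8th of 54613 probe sets in the positive direction, the value for which the gene was chosen. Without CD133+ replicate 2, the array with the wide ACTB gap, the difference was 1.53. It was 1.57 in the values as deposited and 1.49 with each array centred on its median.

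**Figure D1:**
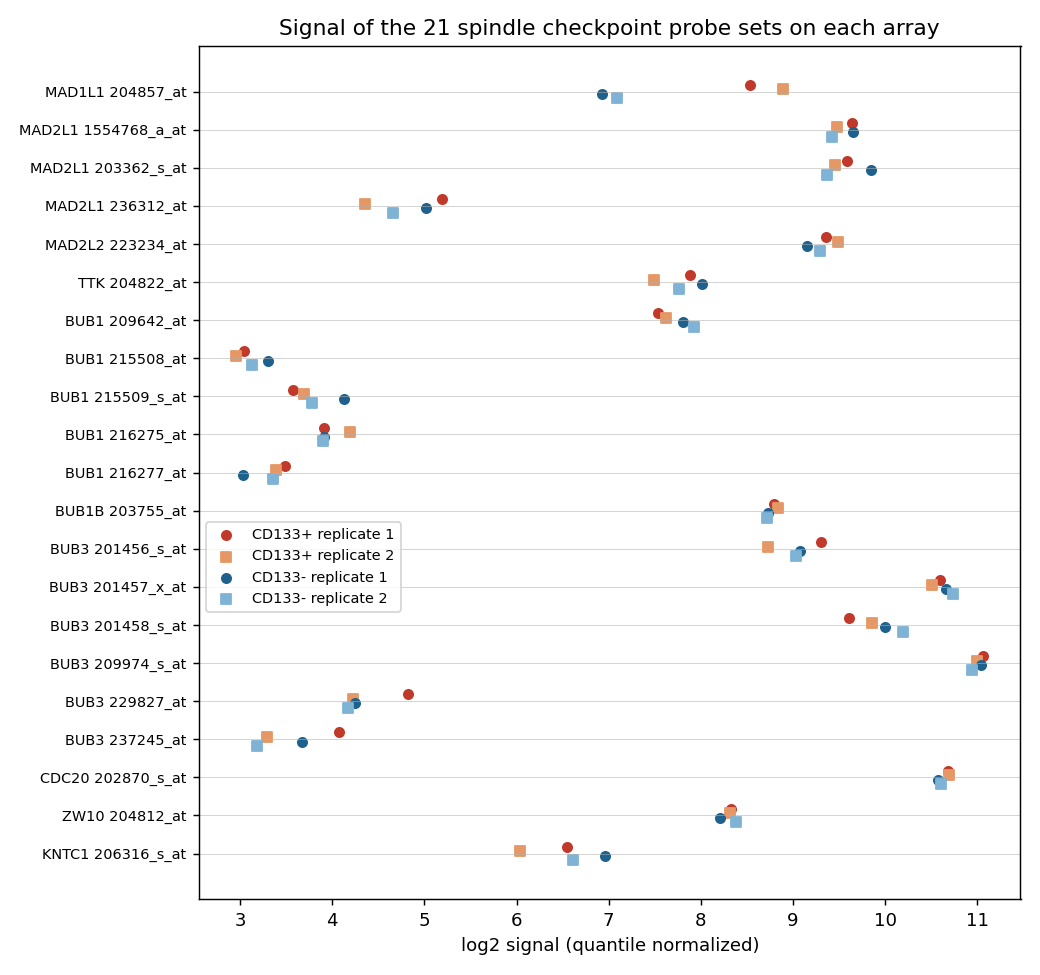
Log2 signal (x axis, quantile normalized) of each of the 21 member probe sets (rows) on the 4 arrays, red and orange for CD133+ and dark and light blue for CD133-, circles for replicate 1 and squares for replicate 2. Only the MAD1L1 row shows a wide gap between the clones (8.54 and 8.89 against 6.93 and 7.09); levels of different probe sets are not comparable with each other.

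MAD2L1, the protein that MAD1L1 converts, had 3 probe sets, and on none of them did the clones separate. Probe set 203362_s_at had 9.59 and 9.46 on the CD133+ arrays against 9.85 and 9.37 on the CD133- arrays. The CD133+ values lay between the 2 CD133- values, and the difference was -0.085 (SE 0.17). Leaving out CD133- replicate 1 turned it to 0.15, and leaving out CD133- replicate 2 gave -0.32. Probe set 1554768_a_at had 9.64 and 9.48 against 9.65 and 9.43, a difference of 0.020 (SE 0.13) whose sign turned with centred arrays (-0.12) and without normalization (-0.041). The third, 236312_at, had 5.19 and 4.36 against 5.01 and 4.65, with a wider spread between replicates than between clones (difference -0.059, SE 0.31). Both of these probe sets turned sign when single arrays were left out, over ranges of -0.093 to 0.13 and of -0.48 to 0.36. So the differences of MAD1L1 and of its binding partner were 1.71 and between -0.085 and 0.020 on the same arrays.

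MAD2L2, also called REV7, shares the fold of MAD2L1 and serves mainly in translesion DNA synthesis and break repair. Its probe set 223234_at had 9.36 and 9.49 in CD133+ against 9.15 and 9.30 in CD133- cells. The arrays did not overlap, but the gap between the nearest ones was smaller than that between the replicates of either clone. The difference was 0.20 (SE 0.12), and it was 0.14 as deposited and 0.063 with centred arrays.

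TTK, the kinase that starts the signal, had 7.88 and 7.49 in CD133+ against 8.01 and 7.77 in CD133- cells on its 1 probe set (204822_at). The groups overlapped, with a difference of -0.20 (SE 0.19). It was -0.44 with centred arrays. Leaving out CD133+ replicate 2 gave -0.0079, and leaving out CD133+ replicate 1 gave -0.40. BUB1, the kinase that BUB3 brings to the kinetochore, had 7.53 and 7.62 against 7.80 and 7.92 on 209642_at. All CD133+ values were below all CD133- values there, with a difference of -0.29 (SE 0.15) that was -0.46 as deposited and -0.53 with centred arrays. The other 4 BUB1 probe sets were dim, at percentiles 6.42 to 38.5 of probe-set level, and 2 of them were positive and 2 negative. Their differences ran from -0.32 (215509_s_at, SE 0.18) to 0.25 (216277_at, SE 0.14), so the probe sets of BUB1 did not share a sign.

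BUB1B, the BubR1 protein that binds and inhibits CDC20, had 8.80 and 8.84 in CD133+ against 8.73 and 8.72 in CD133- cells on 203755_at. Although the arrays did not overlap, the difference was 0.096 (SE 0.13), and it was -0.075 with centred arrays. CDC20, the APC/C activator that the checkpoint holds back, had 10.68 and 10.69 against 10.57 and 10.60 on 202870_s_at. That gap of 0.10 (SE 0.087) was likewise small and turned to -0.0045 with centred arrays. Both genes therefore had close replicates and differences near the standard error.

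BUB3, the adaptor that carries BUB1 and BUB1B, had 6 probe sets, 3 with a positive and 3 with a negative difference. On 201458_s_at the signals were 9.60 and 9.86 in CD133+ against 10.00 and 10.19 in CD133- cells. The arrays did not overlap, and the difference of -0.36 (SE 0.13) was -0.41 as deposited and -0.49 with centred arrays. On 209974_s_at they were 11.065 and 10.998 against 11.04 and 10.94, a difference of 0.044 (SE 0.085) that turned to -0.040 with centred arrays and -0.0050 without CD133- replicate 2. On 201457_x_at, a type of probe set that can also detect related sequences, they were 10.60 and 10.51 against 10.66 and 10.74 (difference -0.14, SE 0.091). The other probe sets, 201456_s_at, 229827_at and 237245_at, had differences of -0.039, 0.31 and 0.26, with CD133+ replicates 0.58, 0.60 and 0.78 apart. These 3 were thus wider apart between CD133+ replicates than between clones. Probe set 201456_s_at turned to 0.25 without CD133+ replicate 2, and 237245_at to -0.13 without CD133+ replicate 1.

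Of the RZZ members, KNTC1 (also called ROD) was lower in CD133+ cells by an amount that depended on single arrays. Its signals on 206316_s_at were 6.55 and 6.04 in CD133+ against 6.96 and 6.61 in CD133- cells. The arrays did not overlap, but the nearest ones, 6.55 and 6.61, were closer than the replicates of either clone. The difference was -0.49 (SE 0.24), -0.62 as deposited and -0.70 with centred arrays. It was -0.23 without CD133+ replicate 2, the array with the wide ACTB gap, and -0.75 without CD133+ replicate 1. ZW10 had 8.33 and 8.31 against 8.21 and 8.38 on 204812_at, with the CD133+ values between the CD133- values. Its difference of 0.025 (SE 0.14) turned to -0.19 with centred arrays, -0.11 without normalization and -0.058 without CD133- replicate 1.

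**Figure D2:**
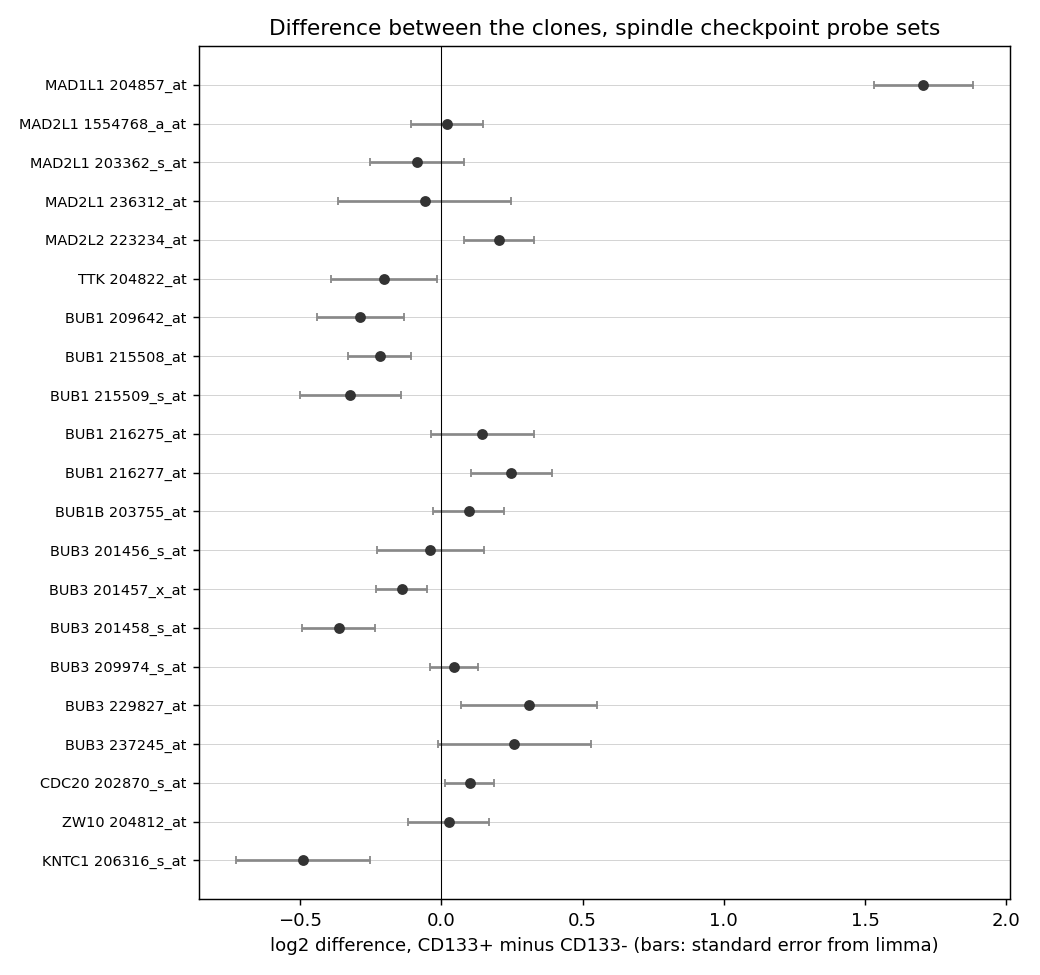
Log2 difference, CD133+ minus CD133- (x axis), of each member probe set (rows), with bars of 1 standard error from limma. MAD1L1 lies at 1.71, and the other 20 probe sets lie between -0.49 and 0.31.

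Over the 21 probe sets, 11 differences were positive and 10 negative, with a median of 0.020 against 0.015 over all probe sets. A call means a limma adjusted p under 0.05 over all 54613 probe sets, and 1 of the 21, MAD1L1, was called, where 0.181% of all probe sets were called (0.0494% higher and 0.132% lower). MAD1L1 was selected on this difference, so its call follows from the selection and nothing is read from it. Among the other 20 probe sets 0 were called by limma, and 1 had an unadjusted p under 0.05 (12.7% of all probe sets had). The fit with 1 probe set per gene called 0 of the 9 genes behind them, where it called 3.74% of 15820 genes. The arrays of the clones did not overlap for 12 of the 21, 6 in each direction, where 43.9% of all probe sets did not overlap (23.5% higher and 20.4% lower). The difference was larger than the wider gap between replicates for 8 of 21, against 31.4% of all probe sets. The median turned to -0.12 with centred arrays and -0.041 without normalization. It also turned when CD133+ replicate 1 was left out (-0.13) or CD133- replicate 2 (-0.059). The MAD1L1 call was lost in the values as deposited, with centred arrays, without the trend of variance on level, and without CD133- replicate 1, where the difference was 1.63.

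Around MAD1L1 on chromosome 7, the neighbouring genes were also mostly higher in CD133+ cells, by less than MAD1L1 itself. These neighbours were listed because earlier results of these data had described the stretch as shifted. Their counts, shares and p-values below restate that choice and are a description. The 10 nearest measured genes on each side, in RefSeq order, had a median difference of 0.43, against 0.047 over all named genes, and 17 of 20 were positive. ZFAND2A, an arsenite-inducible zinc finger protein, and EIF3B, a subunit of the translation initiation factor eIF3, rose, which makes 2 of 20 higher and 0 lower, where 0.101% of named genes were called higher and 0.228% lower. On 13 of the 20 both CD133+ arrays lay above both CD133- arrays, where 28.4% of named genes did so and 19.8% were separate the other way. At an unadjusted p under 0.05 there were 10 higher and 0 lower, against 8.3% and 7.63% of named genes. The 3 with a negative sign, named after their values were seen, were ZFAND2A-DT, LOC100127955 and LFNG, a glycosyltransferase of Notch receptors.

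ZFAND2A had 10.58 and 10.50 on the CD133+ arrays against 9.68 and 9.67 on the CD133- arrays. The clones were far apart relative to the replicates, with a difference of 0.86 (SE 0.099, limma adjusted p = 0.0414). EIF3B had 11.63 and 11.62 against 10.997 and 10.96, a difference of 0.65 (SE 0.075, limma adjusted p = 0.0414) from an x-type probe set. Over the alternatives the limma adjusted p ran from 0.00669 to 0.203 for ZFAND2A and from 0.00669 to 0.209 for EIF3B, the highest in both cases without CD133- replicate 1. Without CD133- replicate 2 it was 0.0803 for ZFAND2A and 0.0884 for EIF3B. With the mean of its probe sets EIF3B was at 0.52 (limma adjusted p = 0.0914).

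The genes next to MAD1L1 itself were not called. On one side ELFN1-AS1 was at 0.33 (SE 0.19, limma adjusted p = 0.523), ELFN1 at 0.45 (SE 0.22, limma adjusted p = 0.448) and PSMG3-AS1 at 0.14 (SE 0.20, limma adjusted p = 0.819). On the other LOC100127955 was at -0.16 (SE 0.20, limma adjusted p = 0.785), MRM2, a methyltransferase of mitochondrial ribosomal RNA, at 0.35 (SE 0.12, limma adjusted p = 0.281) and NUDT1, which clears oxidised nucleotides, at 0.43 (SE 0.15, limma adjusted p = 0.298). The median of these 6 was 0.34. The largest difference among the 20 neighbours was 0.91, and all 20 lay below MAD1L1, which stood 1.28 above their median. The neighbours' median was 0.29 in the values as deposited, with 18 positive, and 0.21 with centred arrays, with 15 positive, and 0 were called in either. How much of the MAD1L1 difference goes with that of its chromosome region was not tested.

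**Figure D3:**
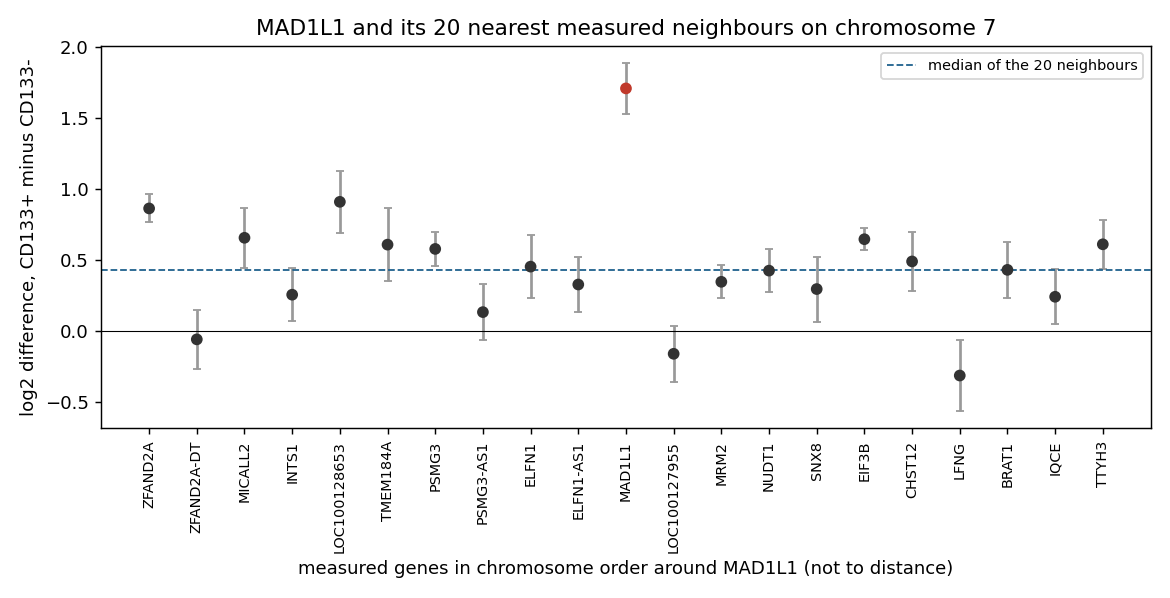
Log2 difference, CD133+ minus CD133- (y axis), of MAD1L1 (red) and its 10 nearest measured genes on each side in chromosome order (x axis, not to distance), with bars of 1 standard error. MAD1L1 at 1.71 lies above all 20 neighbours, whose median (dashed) is 0.43.

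Genes that work with the checkpoint at the kinetochore were read for 28 of 28 listed, and limma called 0 in either direction, where 0.329% of named genes were called. By an unadjusted p under 0.05 there were 1 higher and 1 lower, 2 of 28 where 15.9% of named genes passed that limit, and the median difference was -0.038, against 0.047 over all named genes. NDC80, the microtubule-binding subunit of the outer kinetochore, had 8.95 and 8.92 in CD133+ against 8.67 and 8.35 in CD133- cells (difference 0.43, SE 0.15, limma adjusted p = 0.300). Of the other subunits of that complex, NUF2 was at -0.37 (SE 0.19, limma adjusted p = 0.462) and SPC25 at -0.35 (SE 0.17, limma adjusted p = 0.453). SPC24, named after its values were seen, was at 0.17 (SE 0.27, limma adjusted p = 0.840), so the subunits did not share a sign. NSL1, of the Mis12 complex, was at -0.37 (SE 0.15, limma adjusted p = 0.372), with 2 of its 4 probe sets sharing that sign. BIRC5, survivin, a subunit of the Aurora B complex, was at 0.26 (SE 0.12, limma adjusted p = 0.439). The arrays of the clones did not overlap for 16 of the 28, where 48.1% of named genes did not overlap.

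The APC/C, its regulators, proteins it acts on and further genes such as CDK1 and RAD21 were read for 29 of 30 listed genes. In limma 0 rose and 0 fell, where 0.329% of named genes were called, and the median difference was -0.023. At an unadjusted p under 0.05 there were 4 higher and 3 lower of 29, against 8.3% and 7.63% of named genes. CCNB1, cyclin B, which the APC/C destroys at anaphase, had 10.48 and 10.32 in CD133+ against 10.93 and 10.90 in CD133- cells. Both CD133+ arrays were lower, by more than the gap between replicates, with a difference of -0.52 (SE 0.095, limma adjusted p = 0.0884). In the fit with 1 probe set per gene, which called 3.74% of 15820 genes, it passed with an adjusted p of 0.0222 from limma, and over all alternatives that value ran from 0.0154 to 0.546. PTTG1, securin, the inhibitor of separase, had 11.12 and 11.20 against 10.72 and 10.83 (difference 0.38, SE 0.088, limma adjusted p = 0.145), and ESPL1, separase itself, was at 0.39 (SE 0.13, limma adjusted p = 0.282). Of the APC/C subunits, ANAPC11 was at 0.28 (SE 0.070, limma adjusted p = 0.174), with 1 of its 2 probe sets of that sign, and ANAPC4 at -0.44 (SE 0.13, limma adjusted p = 0.226). CCNB2, the other mitotic B-type cyclin, named after its values were seen, had 10.53 and 10.55 against 10.31 and 10.21. Its difference of 0.28 (SE 0.095, limma adjusted p = 0.282) had the opposite sign to that of CCNB1, and neither passed in the fit over all probe sets.

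Since checkpoint mRNAs are more abundant in dividing cells, general proliferation genes are given beside them. Of 18 measured, limma called 0 in either direction, where 0.329% of named genes were called, and the median was -0.047. At an unadjusted p under 0.05 there were 0 higher and 4 lower, against 8.3% and 7.63% of named genes, and 7 of the 18 differences were positive. Their mean log2 level was 9.05 and 9.15 in CD133+ cells, against 9.17 and 9.19 in CD133- cells. The genes with the smallest p were PCNA, the replication clamp, at -0.27 (SE 0.074, limma adjusted p = 0.208), MCM2, of the replicative helicase, at -0.29 (SE 0.11, limma adjusted p = 0.320), and TYMS, thymidylate synthase, at -0.32 (SE 0.12, limma adjusted p = 0.324). CCNE2, a cyclin of the start of S phase, was at -0.68 (SE 0.26, limma adjusted p = 0.343) and RRM2, a ribonucleotide reductase subunit, at -0.24 (SE 0.11, limma adjusted p = 0.419). For RRM2, 1 of its 2 probe sets had that sign. None of these 5 passed. Whether proliferation has a part in the members' differences was not tested. Leaving out an array turned the kinetochore median to 0.0026 (CD133+ replicate 1), 0.038 (CD133+ replicate 2) or 0.033 (CD133- replicate 2). It turned the APC/C median to 0.0014 (CD133+ replicate 1) or 0.012 (CD133- replicate 1). The medians of the kinetochore, APC/C and proliferation lists were -0.13, -0.15 and -0.16 with centred arrays, where the median of all named genes was -0.035.

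**Figure D4:**
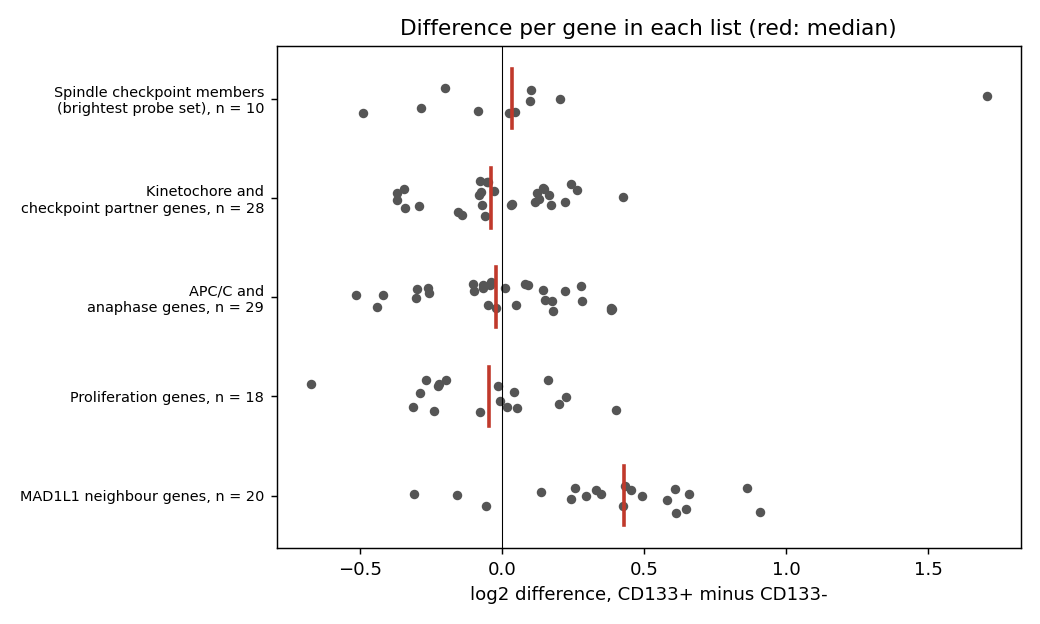
Log2 difference, CD133+ minus CD133- (x axis), of each gene by 1 probe set, for the 10 members and the 4 lists (rows), with the median in red and points spread vertically for visibility. MAD1L1 at 1.71 lies apart from the other points, and the neighbours' median of 0.43 lies right of those of the kinetochore (-0.038), APC/C (-0.023) and proliferation (-0.047) lists.

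The genes with a profile over the 4 arrays nearest to that of MAD1L1 were also listed. Likeness was the Euclidean distance between profiles centred on their own means, over 4 arrays and 15819 other genes. The lowest 20% of genes by level were left out. Uncharacterised loci, FAM and KIAA symbols and antisense or similar transcripts were passed over in naming the nearest. The 5 nearest were EEF1A2, a translation elongation factor, at 0.286, LAMB3, a laminin chain, at 0.375, NDRG1, a stress-responsive protein, at 0.393, LCN2, a siderophore-binding lipocalin, at 0.426 and AGR2, a disulfide isomerase of secretory cells, at 0.435. Only AGR2 of these 5 also lies on chromosome 7. The median distance over all genes was 1.68, and the members ranged from 1.51 for MAD2L2 to 2.31 for KNTC1. This ranking rests on the same contrast for which MAD1L1 was chosen and is a description. The nearest were picked from 15819 genes and the members were not, so the comparison of their distances says nothing about the partners.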

How the data were processed

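Log2 probe-set signals were deposited in 1 table for 4 arrays, with 54675 probe sets each, of which 62 were controls. Per the submitters' processing notes the values came from Affymetrix Expression Console; version, background correction, normalization and summarisation are steps not given in the sources used here. Array medians ran from 4.45 to 4.60, a spread above the limit of 0.1, so quantile normalization was applied, which removes any true overall shift. The CD133+ minus CD133- contrast was fitted in limma 3.58.1 (R 4.3.3; lmFit, eBayes with trend, no filter on level). P-values were Benjamini-Hochberg adjusted over 54613 probe sets, and 0.05 was the threshold of a call. An exact permutation test of 2 arrays against 2 cannot give a p below 0.333, so calls rest on variance shared across probe sets (prior degrees of freedom 5.66). Each listed gene stands for its brightest probe set on average. The code of the fit was run on simulated arrays with independent noise. That run does not bear on how the calls depend on the settings here.

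Genes were named through the platform annotation (41091 probe sets with 1 gene, 1801 with several, 11721 with none listed), and 19738 of 19775 genes matched the RefSeq table (GRCh38.p14), used for gene order. The text names every member, the 5 genes of smallest p in each pathway list, and the 3 nearest neighbours of MAD1L1 on each side with any called one. It also names the 5 genes most alike, with uncharacterised loci and similar symbols passed over. Members and lists were chosen with earlier results of these data known. Alternatives were other scalings, level filters, gene summaries and variance settings, a stricter threshold, a replicate block, and leaving out each array.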

Additional observations from a re-analysis of the deposited data

How the results depend on the processing

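Against 99 probe sets called (27.3% of them higher in CD133+), the count was 6 in the values as deposited (50% higher), 32 with centred arrays (21.9% higher), 336 without the dimmer 50% of probe sets, 592 genes with 1 probe set per gene, 178 genes with probe-set means, 2 without the variance trend, 6 at an adjusted p under 0.01, and 9 to 520 when 1 array was left out, the lowest without CD133- replicate 1. It was 53 without CD133- replicate 2, 314 without CD133+ replicate 2 and 520 without CD133+ replicate 1. The member count of 1 became 0 in the values as deposited, with centred arrays, without trend and at 0.01, and was 0 to 1 with 1 array left out. The neighbour count of 2 became 0 in those same 4 settings, 1 with probe-set means and 0 to 3 with 1 array left out, with 0 without either CD133- array. The APC/C count of 0 became 1 (CCNB1) with 1 probe set per gene and with probe-set means, and was 0 to 1 with 1 array left out. The fit with 1 probe set per gene called 3.74% of 15820 genes. There the neighbours ZFAND2A, EIF3B and PSMG3 passed, with limma adjusted p of 0.00763, 0.00883 and 0.0254, and the other neighbours did not. The cause of these changes was not tested. The labels do not say whether same-numbered arrays share anything beyond the number. Their deviations correlated across probe sets (r = 0.399). With the replicate block the counts were 2409 of 54613 probe sets, 2 members, 6 neighbours and 3 APC/C genes. The members were MAD1L1 and BUB3, the latter lower on 201458_s_at and not called on its other probe sets. Under the 14 alternatives the kinetochore and proliferation counts stayed at 0. Of the 21 member probe sets, 12 kept their sign in every alternative that gave them a difference. These were 9 to 13 alternatives per probe set, since some filters and gene summaries left out the dimmer ones. Of the 375 values of the 29 other named probe sets, 342 kept their direction and side of the threshold, 18 lost a call, 15 gained one and 0 changed sign. Array number limits every statement, and leaving out an array assumes the lone one varies like the other clone.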
